A study of Danio rerio with 12 samples.

Results

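Expression of 4 zebrafish genes of lymphocyte defence was followed across kidney marrows with defects of lymphocyte development, namely the NK-lysins nkl.2 (ENSDARG00000058673), nkl.3 (ENSDARG00000089202) and nkl.4 (ENSDARG00000044023), and the immune-type receptor gene nitr2b (ENSDARG00000000460). They were taken from the count table by symbol and make up 4 of its 32105 genes. Poly(A) RNA was sequenced from whole kidney marrow, where zebrafish make their blood cells around the tubules of the kidney. The 12 libraries, each from the kidney of 1 animal, comprised 3 double mutants, 3 il2rga mutants, 3 prkdc mutants and 3 wild type fish. The series' design text gives the alleles prkdc(D3612fs) and il2rga(Y91fs) for its single-cell samples. They are taken here to be those of these libraries too, whose labels give the genotype only. The double mutant carries both mutations. The sources used here do not state zygosity, strain, age or sex for these 12 animals. The product of prkdc is a kinase of DNA end joining, needed when antigen receptor genes are assembled. The product of il2rga is the common gamma chain, which serves in the receptors of several interleukins.

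NK-lysins are small saposin-like proteins stored in the granules of cytotoxic lymphocytes, where they break membranes of microbes and target cells. The human counterpart is granulysin, made by natural killer (NK) cells and cytotoxic T cells. The nitr genes encode immune-type receptors, cell-surface proteins with immunoglobulin domains, found in bony fish and likened to the NK receptors of mammals. In mammals, NK cells do not assemble antigen receptors and develop without that kinase. Loss of the common gamma chain there removes NK cells and T cells. The mutants of this series were set beside wild type here to compare the levels of these genes.

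The NK-lysins are neighbours in the genome. On the RefSeq gene order of another assembly than the one used for counting, they stand as nkl.4, nkl.3, nkl.2 and nkl.1 between tonsl and psmc1a, and nkl.1 was not analysed here. The gene nitr2b stands between nitr2a and nitr1a. Reads that fit several near-identical copies may have been split or dropped in the authors' counting, so the division of counts among the NK-lysins is uncertain. Levels were not compared between genes, since no transcript lengths were used.

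Total counts per library lay between 4756244 and 10311377. Levels are given as counts per 1000000 (CPM). The targeted gene il2rga averaged 2.78 ± 1.06 CPM in double mutants, 4.24 ± 2.29 CPM in il2rga mutants, 37.3 ± 4.30 CPM in prkdc mutants and 47.4 ± 12.4 CPM in wild type (SD, n = 3 each). The targeted gene prkdc averaged 18.6 ± 0.707 CPM in double mutants, 29.6 ± 6.52 CPM in il2rga mutants, 20.5 ± 3.90 CPM in prkdc mutants and 55.7 ± 6.54 CPM in wild type, so it was low in each mutant group. Markers of neutrophils, red cells and kidney tubule were present in all 12 libraries. A list of 15 liver genes stood apart in some. Its summed level was 13966, 3193 and 1491 CPM in the double mutants, 2234, 4938 and 188 CPM in the il2rga mutants, 106 to 178 CPM in the prkdc mutants and 150 to 174 CPM in wild type. Results are therefore also given without the 4 libraries richest in these transcripts, double mutants 1 and 2 and il2rga mutants 1 and 2. Double mutant 3, which is kept there, was still above every prkdc mutant and wild type library, at 1491 CPM.

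Each NK-lysin gene had fewer reads in every library with mutated il2rga than in any library with intact il2rga, prkdc mutants and wild type alike. The gene nkl.2 had 2, 1 and 1 reads in double mutants 1 to 3, which is 0.227, 0.10 and 0.153 CPM. It had 0, 2 and 0 reads in the il2rga mutants, or 0, 0.214 and 0 CPM. In the prkdc mutants its level was 3.32, 5.35 and 3.00 CPM, against 2.16, 5.60 and 6.67 CPM in wild type. The prkdc mutant values lay inside the range of wild type, and no library with mutated il2rga came near either.

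The gene nkl.3 reached 0.227, 2.50 and 2.60 CPM in double mutants 1 to 3, from 2, 25 and 17 reads. It had 3, 1 and 3 reads in the il2rga mutants, or 0.630, 0.107 and 0.638 CPM. Levels were 25.2, 10.8 and 11.4 CPM in the prkdc mutants, against 4.72, 7.06 and 10.1 CPM in wild type. Each prkdc mutant was above each wild type fish, with prkdc mutant 1 highest by far, while double mutants 2 and 3 lay between the il2rga mutants and wild type.

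The gene nkl.4 reached 0.568, 1.00 and 3.97 CPM in the double mutants, from 5, 10 and 26 reads. In the il2rga mutants it was read 3 times in all, each time in il2rga mutant 3, at 0.638 CPM there and 0 CPM in the other 2 fish. Its level was 18.7, 8.40 and 7.67 CPM in the prkdc mutants, against 11.1, 5.72 and 9.15 CPM in wild type. The prkdc mutants overlapped wild type, and double mutant 3 was nearest to them among the libraries with mutated il2rga.

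The receptor gene nitr2b was well read in wild type alone. It was not read in any double mutant, which at 3 reads over the group allows a level of up to 0.118 CPM. It was read once among the il2rga mutants, in il2rga mutant 2, at 0.107 CPM. The prkdc mutants had 1, 2 and 3 reads, or 0.114, 0.218 and 0.36 CPM, against 20, 20 and 39 reads in wild type, or 1.97, 2.44 and 4.20 CPM. Each of the 9 mutant libraries was below each wild type library. The gene passed the filter on low counts through its wild type libraries alone, and the NK-lysins through prkdc mutants and wild type. A gene high in any group could pass, but these 4 were tested only because they were high in those groups. The calls below are therefore given gene by gene, and how many of the 4 were called supports nothing.

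**Figure D1:**
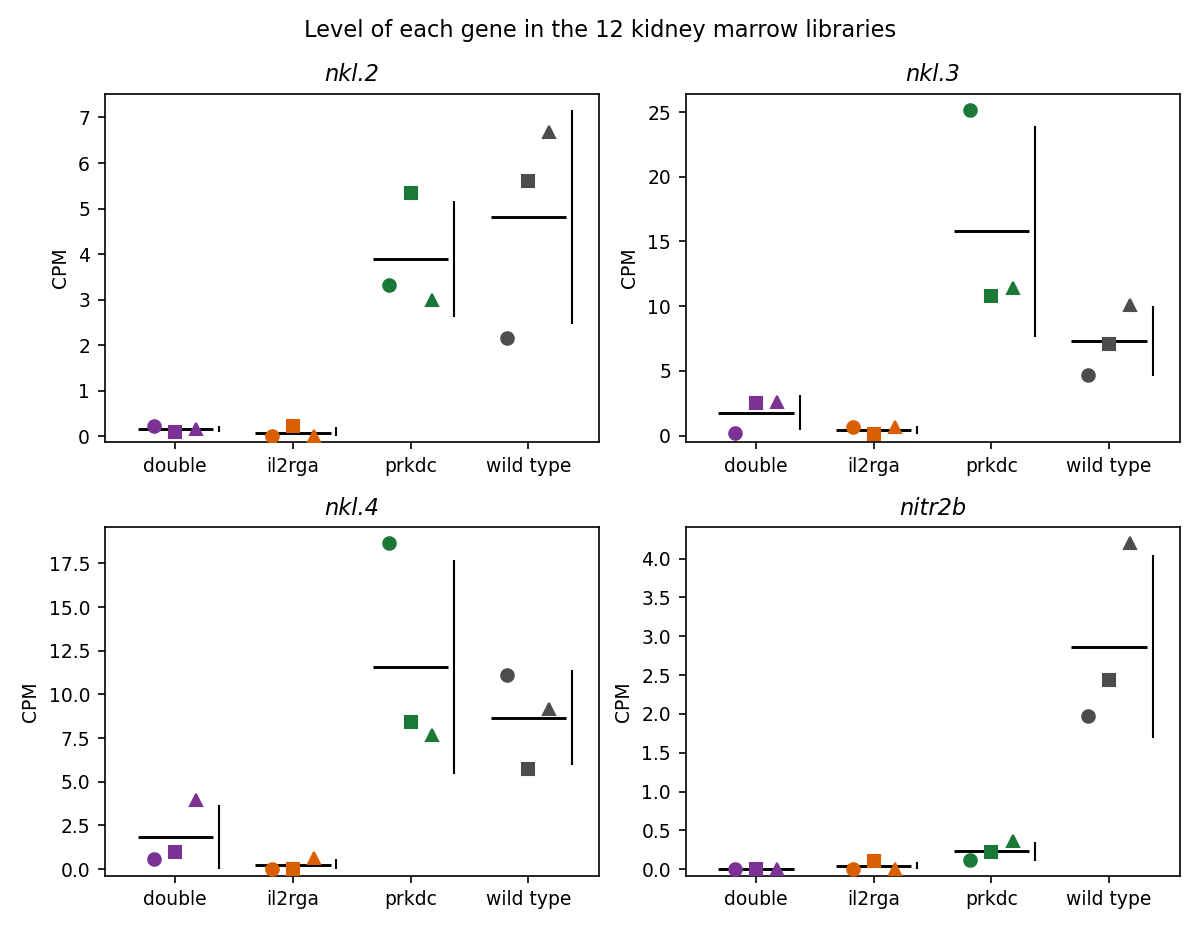
Level of nkl.2, nkl.3, nkl.4 and nitr2b in CPM (y axes, linear, each with its own scale) in double mutants, il2rga mutants, prkdc mutants and wild type (x axes). Each point is 1 library (circle, square and triangle for replicates 1, 2 and 3), the horizontal line is the mean and the vertical line beside it spans 1 SD either way. The NK-lysins are high in prkdc mutants and wild type, while nitr2b is high in wild type alone, at 1.97 to 4.20 CPM.

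The mean level of nkl.2 was 0.160 ± 0.0640 CPM in double mutants, 0.0712 ± 0.123 CPM in il2rga mutants, 3.89 ± 1.27 CPM in prkdc mutants and 4.81 ± 2.36 CPM in wild type (SD, n = 3 each). That of nkl.3 was 1.77 ± 1.34 CPM in double mutants, 0.458 ± 0.305 CPM in il2rga mutants, 15.8 ± 8.14 CPM in prkdc mutants and 7.30 ± 2.71 CPM in wild type. For nkl.4 the means were 1.85 ± 1.85 CPM in double mutants, 0.213 ± 0.368 CPM in il2rga mutants, 11.6 ± 6.14 CPM in prkdc mutants and 8.66 ± 2.73 CPM in wild type. In each NK-lysin gene the il2rga mutants stood lowest and the double mutants next, and these neighbours overlapped. At the high end, prkdc mutants stood above wild type for nkl.3 and nkl.4 and below it for nkl.2. The receptor gene nitr2b averaged 0 CPM in double mutants, 0.0356 ± 0.0617 CPM in il2rga mutants, 0.231 ± 0.123 CPM in prkdc mutants and 2.87 ± 1.18 CPM in wild type, and the lower 2 of these groups overlapped.

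The effect of il2rga loss was tested first over both prkdc backgrounds, with the 6 fish that carry mutated il2rga against the 6 that do not. The NK-lysins fell, in a fit in which 13.3% of the 18370 genes tested were called lower. Genes were called at an adjusted p under 0.05 by edgeR's quasi-likelihood test with Benjamini-Hochberg adjustment over all genes. The log2 fold change was -4.94 ± 0.54 for nkl.2 (SE, adjusted p = 0.000407), -3.63 ± 0.57 for nkl.3 (adjusted p = 0.00181) and -4.11 ± 0.68 for nkl.4 (adjusted p = 0.00244). For nitr2b, 1 read in the 6 fish with mutated il2rga stood against 85 in the 6 others, a ratio of 69.6 (95% counting interval 12.2 to 2782, adjusted p = 0.00338). Of these 85 reads, 79 came from wild type, through which alone the gene passed the filter, and 6 from prkdc mutants. On the prkdc mutant background, 0 against 6 reads were not called (adjusted p = 0.0561). In each gene the 6 libraries with mutated il2rga were all below the 6 others in CPM, which held for 6.74% of all genes tested. For nitr2b, il2rga mutant 2 and prkdc mutant 1 had 1 read each, so library size alone set their order (0.107 and 0.114 CPM). Each of the 4 calls was made under all 19 alternatives, with adjusted p up to 0.0239 for nkl.2, 0.0335 for nkl.3, 0.0409 for nkl.4 and 0.0416 for nitr2b, and these highest values came without the 4 libraries richest in liver transcripts.

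In il2rga mutants against wild type the NK-lysins fell again, and nitr2b was called lower under the limit of the filter, where 3.59% of all genes were called lower. The reads were 2 against 130 for nkl.2, a ratio of 44.2 (12 to 369, adjusted p = 0.00814), and 7 against 200 for nkl.3, a log2 fold change of -4.11 ± 0.87 (adjusted p = 0.0235). They were 3 against 245 for nkl.4, a ratio of 55.6 (18.8 to 271, adjusted p = 0.0183), and 1 against 79 for nitr2b, a ratio of 53.7 (9.37 to 2149, adjusted p = 0.0134). Ratios are wild type over mutant per effective library size, and their intervals, like the limits set at 3 reads, cover counting error only. All 3 il2rga mutants were below all 3 wild type fish in each gene, as they were for 16% of all genes.

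The calls of nkl.3, nkl.4 and nitr2b in that comparison were lost when some single animals were left out, while their values stayed lower. The adjusted p of nkl.3 was 0.0534 without il2rga mutant 1, 0.0898 without il2rga mutant 2, 0.0548 without wild type 2 and 0.0837 without wild type 3, and between 0.0000805 and 0.120 over all 20 alternatives. In those 4 fits its log2 fold change lay between -4.49 and -3.49. That of nkl.4 was 0.0534 and 0.0724 without il2rga mutants 1 and 2, and 0.0525 and 0.0642 without wild type 1 and 3, within a range of 0.0000154 to 0.104. That of nitr2b was 0.0557 without il2rga mutant 2 and 0.0673 without wild type 3, within a range of 0.00255 to 0.0950. Liver transcripts were high in il2rga mutants 1 and 2 and summed to 188 CPM in il2rga mutant 3. That single animal had 1.28 CPM of the 3 NK-lysins together, against 18.0, 18.4 and 25.9 CPM in wild type. The part of liver transcripts in the falls was not tested. Summed markers of other blood cells also varied between the groups. Neutrophil genes, 5 in all, summed to 4442 to 6347 CPM in double mutants and 5390 to 12875 CPM in il2rga mutants. They summed to 3938 to 7371 CPM in prkdc mutants, which overlapped wild type at 3680 to 4081 CPM. Macrophage genes, 12 in all, summed to 737 to 1182 CPM in double mutants and 848 to 1194 CPM in prkdc mutants, both overlapping wild type at 819 to 1108 CPM. In il2rga mutants they summed to 1379 to 1519 CPM. For il2rga loss over both backgrounds edgeR called 5 of the 12 higher and 1 lower. There 5087 of 18370 genes were called either way, and 13.3% lower. The part of other cells in the falls was not tested. In these bulk libraries, fewer cells that express a gene and less RNA of it per cell cannot be told apart.

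Double mutants against wild type, which share the wild type libraries with the comparison above, gave a call for nkl.2 and, under the limit of the filter, for nitr2b, with 7.51% of all genes called lower. The log2 fold change of nkl.2 was -4.79 ± 0.73 (4 against 130 reads, adjusted p = 0.00535). The level of nitr2b was at least 24.1-fold lower, with 0 against 79 reads (floor of 3 reads over the group, adjusted p = 0.00542). The genes nkl.3 and nkl.4 had lower values in every double mutant, which held for 17.8% of all genes, and did not pass the test. Their log2 fold changes were -2.04 ± 0.71 (interval -3.61 to -0.47, adjusted p = 0.0761) and -2.26 ± 0.81 (interval -4.05 to -0.48, adjusted p = 0.0812). By the DESeq2 Wald test they had adjusted p of 0.0246 and 0.0185. The alternatives ran from 0.0246 to 0.264 for nkl.3 and from 0.0185 to 0.346 for nkl.4, and nkl.4 was called, at 0.0210, without double mutant 3.

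Set against prkdc mutants, the double mutants differ by the added loss of il2rga. There all 3 NK-lysins fell, where 6.86% of all genes were called lower. Their log2 fold changes were -4.49 ± 0.73 for nkl.2 (adjusted p = 0.00805), -3.15 ± 0.73 for nkl.3 (adjusted p = 0.0229) and -2.68 ± 0.82 for nkl.4 (adjusted p = 0.0494). All double mutants were below all prkdc mutants in the 3 genes, as for 17.2% of all genes. The call of nkl.3 was lost without double mutant 1 (0.0550), prkdc mutant 1 (0.0588) or prkdc mutant 3 (0.0580). That of nkl.4 was made in 3 of 12 fits that left out a library, those without double mutant 3, il2rga mutant 2 or il2rga mutant 3, at adjusted p between 0.0163 and 0.161 over the 12. The gene nitr2b was read 0 times against 6, at least 1.93-fold lower, with an adjusted p of 0.0561.

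In il2rga mutants against prkdc mutants, the NK-lysins fell too, with 3.67% of all genes called lower. The ratio of prkdc over il2rga mutants was 36.9 for nkl.2 (9.97 to 309, adjusted p = 0.00952) and 72.7 for nkl.4 (24.6 to 354, adjusted p = 0.0142), and nkl.3 had a log2 fold change of -5.22 ± 0.88 (adjusted p = 0.0109). Without il2rga mutant 2 the adjusted p of nkl.4 was 0.0533. The gene nitr2b, with 1 against 6 reads and a ratio of 4.30 (0.522 to 198), was not called (adjusted p = 0.297).

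Loss of prkdc alone left no called difference in any of the 4 genes. The log2 fold change in prkdc mutants against wild type was -0.30 ± 0.55 for nkl.2 (interval -1.52 to 0.91), 1.11 ± 0.67 for nkl.3 (interval -0.35 to 2.58) and 0.42 ± 0.75 for nkl.4 (interval -1.22 to 2.06), with adjusted p of 1, 0.984 and 1. The intervals bound but do not exclude a change, and that of nkl.3 reaches from a small fall to a rise of more than 2 log2 units. All 3 prkdc mutants exceeded all 3 wild type fish for nkl.3, as for 6.27% of all genes, and its log2 fold change was 0.61 without prkdc mutant 1. For nitr2b the log2 fold change was -3.56 ± 0.70 (interval -5.13 to -1.98, unadjusted p = 0.000601, adjusted p = 0.257), with all prkdc mutants below wild type as for 7.61% of all genes. Its adjusted p was 0.0463 by limma voom with quality weights, 0.0634 by the DESeq2 Wald test and between 0.0463 and 0.819 over all 20 alternatives.

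That comparison had few calls at all. edgeR called 0% of genes in prkdc mutants against wild type, with 1052 of 18370 at an unadjusted p under 0.05, while DESeq2 called 139 and voom 26. Of the 4 genes, 1 had an unadjusted p under 0.05, which was nitr2b, and DESeq2 called 0 and voom 1 of them. Averaged over both il2rga backgrounds, prkdc loss gave log2 fold changes of 0.15 ± 0.53 for nkl.2, 1.59 ± 0.56 for nkl.3 and 1.84 ± 0.68 for nkl.4, and 6 against 80 reads of nitr2b, none called, with 0.147% of all genes called. Of the 4 genes, 3 had an unadjusted p under 0.05 there, as had 1417 of 18370 genes. They were nkl.3 and nkl.4, with higher values, and nitr2b, with lower ones. DESeq2 and voom called 0 of the 4.

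The double mutants did not pass the test against the il2rga mutants in any of the 4 genes, and 0% of all genes were called. The log2 fold change of nkl.3 was 2.07 ± 0.89 (interval 0.12 to 4.02, adjusted p = 0.512). The reads of nkl.4 were 41 against 3, a ratio of 10.2 (3.24 to 51.2, adjusted p = 0.506). Both had an unadjusted p under 0.05, as had 1767 genes, and DESeq2 called 72 genes and voom 0, none of them among the 4. With the replicate number as a block, 5 genes were called and again none of the 4. The interaction, which asks whether prkdc loss acts differently with and without il2rga, was called for 0% of genes and for none of the 4 by edgeR, DESeq2 or voom, and no member had an unadjusted p under 0.05 in edgeR. Its largest value was for nkl.4, at 2.85 ± 1.37 on the log2 scale (interval -0.15 to 5.86, adjusted p = 0.788).

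The division of reads among the NK-lysins was set by library. In prkdc mutants 1 to 3, nkl.3 held 53.4% (Wilson 95% interval 48.6 to 58.2), 44.0% (37.7 to 50.5) and 51.6% (44.5 to 58.7) of the 412, 225 and 184 NK-lysin reads. In wild type it held 26.2% (20.4 to 33.0), 38.4% (31.0 to 46.4) and 39.0% (33.1 to 45.3) of 183, 151 and 241 reads. These intervals also cover counting error only, and say nothing of the spread between animals. The 2 groups did not overlap, and an exact permutation test of 3 against 3 animals cannot go below 0.1. The share of nkl.2 was 7.04%, 21.8% and 13.6% in prkdc mutants and 12%, 30.5% and 25.7% in wild type, which overlap. That of nkl.4 was 39.6%, 34.2% and 34.8% in prkdc mutants and 61.7%, 31.1% and 35.3% in wild type, which also overlap. Shares of a library are tied to each other, and reads that fit several copies make them uncertain. Double mutant 2, with 36 reads, had 69.4% nkl.3, while double mutant 3, with 44, had 59.1% nkl.4. The il2rga mutants had 3, 3 and 6 NK-lysin reads, too few for a share.

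**Figure D2:**
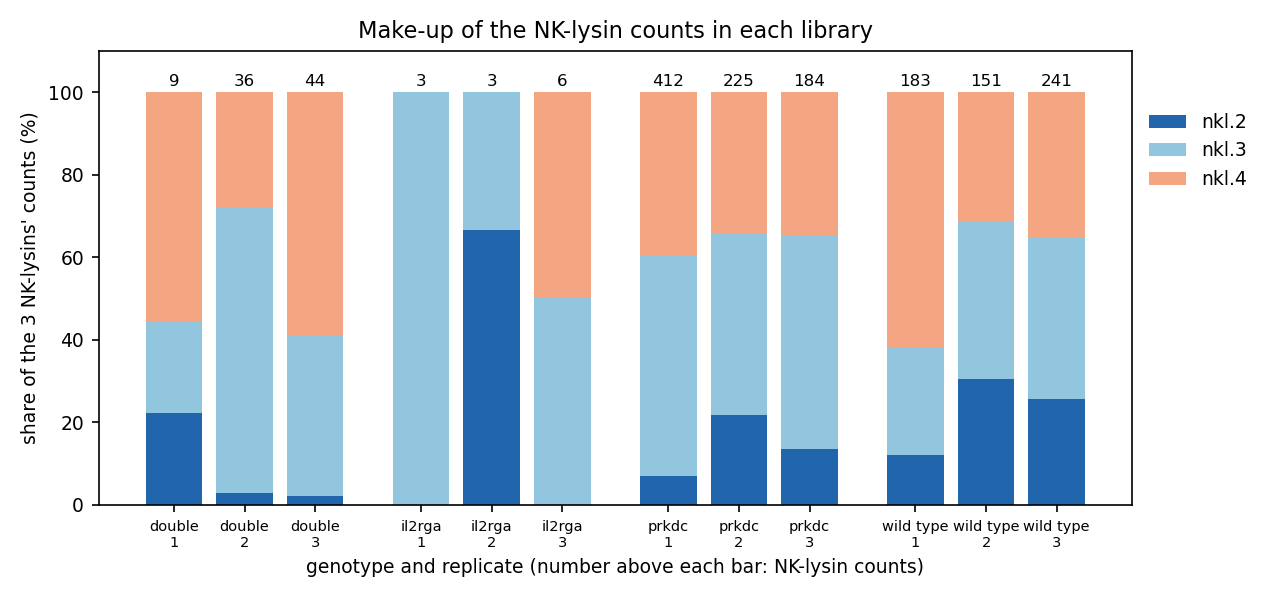
Share of NK-lysin reads (y axis, percent) held by nkl.2, nkl.3 and nkl.4 in each of the 12 libraries (x axis), with the number of reads above each bar. The nkl.3 segment spans 44.0% to 53.4% in prkdc mutants and 26.2% to 39.0% in wild type, and bars of double and il2rga mutants rest on 3 to 44 reads.

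T cell genes were set beside the NK-lysins. A list of 15 such genes summed to 11.3, 6.30 and 6.57 CPM in double mutants, 5.46, 7.80 and 4.04 CPM in il2rga mutants, 18.5, 34.1 and 24.1 CPM in prkdc mutants and 94.3, 75.3 and 160 CPM in wild type. The prkdc mutants thus held fewer T cell transcripts than any wild type fish, while their summed NK-lysins were 47.2, 24.5 and 22.1 CPM, against 18.0, 18.4 and 25.9 CPM in wild type. In prkdc mutants against wild type, edgeR called 0 of the 14 T cell genes tested, 10 had an unadjusted p under 0.05, and DESeq2 called 4 and voom 5 lower. Of all 18370 genes, edgeR called 0 there, 1052 had an unadjusted p under 0.05, and DESeq2 called 139 either way. The median log2 fold change of the 14 T cell genes was -2.10, beside 0.0006 over all genes, between the values of the NK-lysins and that of nitr2b. Differences between genes were not tested. 

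Against wild type, edgeR called 12 of the 14 T cell genes lower in il2rga mutants, where 3.59% of all genes were, and 12 in double mutants, where 7.51% were, with medians of -4.24 and -4.11 where a gene with no reads is set at its bound. The smallest p in il2rga mutants belonged to ccr7, the receptor that guides lymphocytes to lymphoid tissue in mammals, and lat, an adaptor of T cell receptor signalling. Their log2 fold changes were -4.95 ± 0.55 (adjusted p = 0.00285) and -4.91 ± 0.63 (adjusted p = 0.00473). T cell transcripts and the 4 genes were thus low in each library with mutated il2rga. In prkdc mutants the T cell sum and nitr2b were also below every wild type fish, while the summed NK-lysins overlapped wild type. The part of T cells in the falls was not tested. Without the 4 liver-rich libraries, which leaves 1 il2rga mutant and 1 double mutant, the fitted medians of the T cell list were no smaller in size. They were -7.40 in the il2rga mutant and -5.21 in the double mutant, against -4.47 and -4.11 in all 12 libraries. Fitted values of genes without reads depend on the prior count. Of a B cell list of 10 genes, edgeR called 8 lower in double mutants, where 7.51% of all genes were called lower. It called 1 higher in il2rga mutants, where 1066 of 18370 genes were called either way. In the same comparisons voom called 3 lower in double mutants, and 1 lower and 1 higher in il2rga mutants. Without the 4 liver-rich libraries the median log2 fold change of the B cell list was -3.03 in the double mutant left, against -3.60 in all libraries. In prkdc mutants edgeR called 0 of the 10, while 8 had an unadjusted p under 0.05, DESeq2 called 7 lower and voom 0. Of all 18370 genes, edgeR called 0 there, 1052 had an unadjusted p under 0.05, and DESeq2 called 139 either way.

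**Figure D3:**
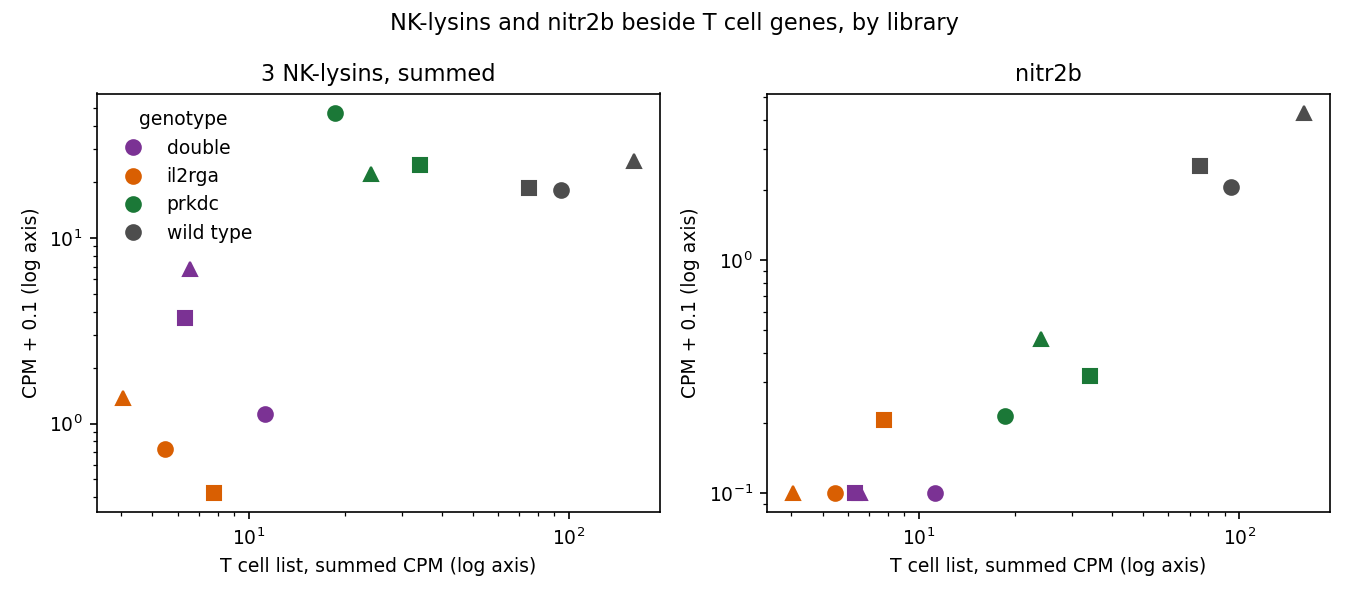
Summed level of the 3 NK-lysins (left) and level of nitr2b (right), as CPM plus 0.1 on log y axes, against the summed CPM of 15 T cell genes on log x axes. Each point is 1 library, coloured by genotype, with circle, square and triangle for replicates 1, 2 and 3. On the left the prkdc mutants span 22.1 to 47.2 CPM and overlap wild type at 18.0 to 25.9 CPM, and on the right they lie below it, at 0.36 CPM or less.

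Other genes of granule killing varied in their pattern. Of 14 matched, 9 were tested, and edgeR called 4 lower in both il2rga and double mutants against wild type, beside 3.59% and 7.51% of all genes: gzma, a granule protease, prf1.9 and prf1.1, pore-forming perforins, and faslg, a death ligand. The perforin gene prf1.9 averaged 0.105 ± 0.10 CPM in double mutants, 0.211 ± 0.210 CPM in il2rga mutants, 5.15 ± 0.897 CPM in prkdc mutants and 3.49 ± 1.33 CPM in wild type. It was read 3 times in il2rga mutants against 98 in wild type (adjusted p = 0.0173), and its log2 fold change in prkdc mutants was 0.56 ± 0.59 (adjusted p = 1). The protease gene gzma averaged 0.509 ± 0.0555 CPM in double mutants, 0.212 ± 0.00182 CPM in il2rga mutants, 0.725 ± 0.0735 CPM in prkdc mutants and 4.88 ± 2.48 CPM in wild type. Its log2 fold change was -4.43 ± 0.55 in il2rga mutants (adjusted p = 0.00473) and -2.72 ± 0.46 in prkdc mutants (adjusted p = 0.205). The 5 others, prf1.6, prf1.5, prf1.3, prf1.2 and srgn, were not called against wild type in either group. Without the 4 liver-rich libraries, 11 genes of this list were tested. Their median log2 fold change against wild type was -3.95 in the il2rga mutant left and -2.66 in the double mutant left. In all libraries the median of the 9 genes was -1.20 and -0.55. Fitted values of genes without reads depend on the prior count.

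The perforin gene prf1.6 had its lowest mean in prkdc mutants. It averaged 1.74 ± 1.27 CPM in double mutants, 1.91 ± 0.439 CPM in il2rga mutants, 0.189 ± 0.169 CPM in prkdc mutants and 1.73 ± 0.129 CPM in wild type. edgeR called it higher in il2rga mutants than in prkdc mutants, with 38 against 5 reads (adjusted p = 0.0488), and in double mutants than in prkdc mutants, with 48 against 5 reads and overlapping libraries (adjusted p = 0.0365). With the replicate block 0 of the 9 genes were called higher in these comparisons. The log2 fold change of prf1.6 in prkdc mutants against wild type was -3.09 ± 0.86 (adjusted p = 0.497). In prkdc mutants against wild type, 0 of the 9 were called, 2 had an unadjusted p under 0.05, and DESeq2 called 1 and voom 0. Of all 18370 genes, edgeR called 0 there, 1052 had an unadjusted p under 0.05, and DESeq2 called 139.

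Genes tied to type 1 and innate lymphocytes, transcription factors that steer killer cells among them, changed in both directions. Of 11 matched type 1 and innate lymphocyte genes, 7 were tested. The gene tbx21, which encodes T-bet, had log2 fold changes of -3.16 ± 0.54 in il2rga mutants (adjusted p = 0.0115) and -3.93 ± 0.56 in double mutants (adjusted p = 0.00474), both against wild type. The gene nfil3, needed for NK cell development in mice and widely expressed elsewhere, rose on the log2 scale by 3.72 ± 0.80 (adjusted p = 0.0272) and 3.11 ± 0.78 (adjusted p = 0.0295) in the same comparisons. Its level ran from 6.11 to 72.3 CPM in double mutants and was 27.4 CPM or more in il2rga mutants, against 4.20 to 5.85 CPM in wild type, so 1 double mutant stood next to wild type. In double mutants runx3 and il12rb2 fell as well, with log2 fold changes of -1.54 ± 0.40 and -1.28 ± 0.34 (adjusted p = 0.0308 and 0.0319). Without the 4 liver-rich libraries, the median log2 fold change of 9 genes of this list was -0.30 in the il2rga mutant left and -0.73 in the double mutant left. In all libraries the median of the 7 genes was -0.48 and -0.92. None of the 7 was called in prkdc mutants, where 1 had an unadjusted p under 0.05 and DESeq2 and voom called 0. Of all 18370 genes, edgeR called 0 there, 1052 had an unadjusted p under 0.05, and DESeq2 called 139.

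Among 14 tested genes of the common gamma chain pathway, il2rga itself and il2rb, the beta chain that pairs with it in the receptors for interleukins 2 and 15, fell in both il2rga and double mutants against wild type. The log2 fold change of il2rb was -2.52 ± 0.48 in il2rga mutants (adjusted p = 0.0160) and -2.53 ± 0.48 in double mutants (adjusted p = 0.0106). edgeR called none of the 12 others in either comparison, where it called 3.59% and 7.51% of all genes lower. DESeq2 called 4 of the 14 lower in il2rga and 3 in double mutants, and voom 3 in each. Of all 18370 genes, voom called 2626 either way in il2rga mutants, and DESeq2 4078 either way in double mutants. Totals of DESeq2 in il2rga mutants and of voom in double mutants are not given here. The counts of this list for those have no background beside them. Without the 4 liver-rich libraries, the median log2 fold change of the list was -0.24 in the il2rga mutant left and -0.47 in the double mutant left. In all libraries it was -0.34 and -0.61. In prkdc mutants edgeR called 0 of the 14, with 1 at an unadjusted p under 0.05, and DESeq2 and voom also called 0. Of all 18370 genes, edgeR called 0 there, 1052 had an unadjusted p under 0.05, and DESeq2 called 139.

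The rest of the receptor family was too thinly read to be tested in the same fit. The 20 other nitr genes in the table did not pass the filter. Together they summed to 5.11, 2.20 and 0.611 CPM in double mutants, 0, 2.67 and 1.49 CPM in il2rga mutants, 3.32, 4.91 and 6.12 CPM in prkdc mutants and 1.67, 4.51 and 9.26 CPM in wild type. The prkdc mutants lay within the range of wild type, and the double mutants and il2rga mutants each overlapped it. The adjacent gene nitr2a had 3 reads in double mutants, 0 in il2rga mutants, 5 in prkdc mutants and 14 in wild type, and nitr1a on the other side had 3, 0, 15 and 20. Without a filter, 18 of the 20 could be tested and edgeR called 0 in each of the 6 pairs of groups. At an unadjusted p under 0.05 were 8 in il2rga mutants, 1 in prkdc mutants and 1 in double mutants against wild type. Of all 18370 genes in the filtered fit, 4368, 1052 and 5947 were. The number of nitr genes was 4 in double and 7 in il2rga against prkdc mutants, and 3 in double against il2rga mutants. In the filtered fit, 5928, 4806 and 1767 of 18370 genes were at that level in these comparisons. Over both prkdc backgrounds, 2 nitr genes were called for il2rga loss, beside 5087 of 18370 genes either way in the filtered fit. The direction of these nitr genes is not given here. The diverse immunoglobulin domain proteins, a receptor family of fish related to these, had 8 genes matched and 4 tested, and edgeR called 0 of the 4 in any pair of groups, with at most 1 at an unadjusted p under 0.05. DESeq2 called 1 of them higher in il2rga mutants than in wild type.

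**Figure D4:**
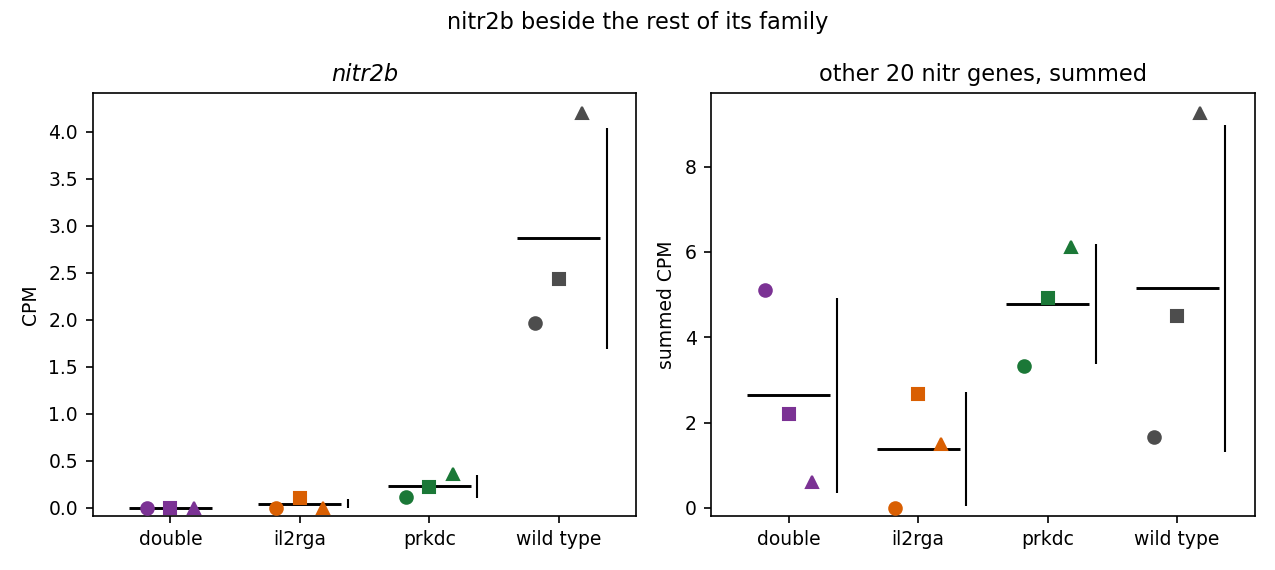
Level of nitr2b (left) and summed level of the 20 other nitr genes (right) in CPM on linear y axes with their own scales, in double mutants, il2rga mutants, prkdc mutants and wild type. Points are libraries (circle, square and triangle for replicates 1, 2 and 3), the horizontal line is the mean and the vertical line spans 1 SD either way. The other genes sum to 3.32 to 6.12 CPM in prkdc mutants, inside the wild type span of 1.67 to 9.26 CPM, while nitr2b stays at or below 0.36 CPM there.

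Over the 12 libraries, levels of nkl.3 and nkl.4 were correlated with a Pearson r of 0.93, and those of nkl.2 with nkl.3 and with nkl.4 with an r of 0.83 each. Libraries share genotypes, so these values mostly restate the group difference. Within the 6 libraries with intact il2rga, r was 0.58 for nkl.3 with nkl.4, 0.12 for nkl.2 with nkl.3 and -0.44 for nkl.2 with nkl.4. The r of nitr2b with nkl.2, nkl.3 and nkl.4 was 0.76, 0.50 and 0.56 over the 12 libraries, and 0.32, -0.68 and -0.43 over those 6. These are descriptions without a test.

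Of 14749 other genes averaging 1 CPM or more, those most like the mean of the NK-lysins over the 12 libraries were abl2, a tyrosine kinase (r = 0.979), chd6, a chromatin remodeller (0.974), snx6, a sorting nexin (0.973), and ccl33.3, a chemokine (0.971). The next were uts2r1, kpna6, arhgap17 and pura, at 0.970 to 0.965. They differed in size of change. In il2rga mutants against wild type the log2 fold change was -1.27 ± 0.23 for abl2 (adjusted p = 0.0137), -3.27 ± 0.35 for snx6 (adjusted p = 0.00285) and -0.83 ± 0.15 for arhgap17 (adjusted p = 0.0134). It was -4.60 ± 0.81 for ccl33.3 (adjusted p = 0.0129), beside -4.11 ± 0.87 for nkl.3. The gene snx6, the strongest example but for ccl33.3, averaged 5.74 ± 1.38 CPM in double mutants, 4.77 ± 1.82 CPM in il2rga mutants, 44.6 ± 16.7 CPM in prkdc mutants and 45.7 ± 4.70 CPM in wild type. For nitr2b the list was another one: ccr7 (0.974), gzma (0.957), def6, an exchange factor of T cell signalling in mammals (0.954), lat (0.933) and itk, a kinase of T cell receptor signalling (0.933). Of these 5, ccr7, lat and itk stood on the T cell list and gzma on the granule list. The gene ccr7 averaged 0.365 ± 0.225 CPM in double mutants, 0.425 ± 0.215 CPM in il2rga mutants, 0.871 ± 0.195 CPM in prkdc mutants and 14.4 ± 5.41 CPM in wild type.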

How the data were processed

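Raw counts for each Ensembl gene in the 12 libraries were deposited by the authors. Per the submitters' processing notes the authors used STAR, Picard and featureCounts on GRCz10, while the sources used here do not state versions, annotation, strand setting or how duplicates and shared reads were handled. Per the labels' protocols the kit was directional. All 12 columns were matched to samples by title, and no column was left unused. Of 32105 identifiers, 26269 matched a symbol, regardless of case. filterByExpr kept 18370 genes, all 4 members among them, and TMM scaled them. CPM is per TMM effective library size. edgeR 4.0.16 in R 4.3.3 fitted 4 group means to all 12 libraries (robust quasi-likelihood, 2-sided, Benjamini-Hochberg at 0.05). The SE of a log2 fold change is its size over the root of F, and intervals are at 95%. Log2 CPM for the likeness used a prior count of 2. The scripts were run on simulated data as a check of the code, with no limit set on false calls for DESeq2.

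The members and gene lists were chosen with earlier results of these data known, so the lists are descriptions and gain no support from them. Genes named from a list are up to 4 called members by smallest p in the comparison at hand, or else its most abundant tested member. The genes most like the members are the 8 and 5 highest by Pearson r. The values of gzma and prf1.9 in prkdc mutants, those of nitr2a and nitr1a, the log2 fold change of ccl33.3, and the levels of snx6 and ccr7 were picked after being seen. Symbols containing a colon were left out of the likeness.

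Replicates of a group differed by far more than 1 library read again would, with chi-square per degree of freedom of 19.1 to 79.7. The labels do not say that replicate numbers pair animals. After group means were removed, 6 of 18 same-numbered pairs had a correlation above 0.1, and their median was 0.066, against -0.017 in pairs of unlike number. All 3 pairs of double with il2rga mutants were above 0.1 (0.132, 0.121 and 0.519), so the blocked count stands beside that comparison. Alternatives were DESeq2 size factors, no filter, 1 CPM in 3 libraries, the DESeq2 1.42.0 Wald test, limma 3.58.1 voom with quality weights, the replicate block, fits to only the 2 groups compared, each library left out, and the 4 libraries richest in liver transcripts left out.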

Additional observations from a re-analysis of the deposited data

How the results depend on the processing

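No result changed direction past the threshold under any alternative. The il2rga effect over both prkdc backgrounds was called for each gene in all 19 alternatives, that of nitr2b resting mostly on its 79 wild type reads. Without the 4 libraries richest in liver transcripts, calls in the pairs of groups were lost, with adjusted p in il2rga mutants against wild type of 0.0873 (nkl.2), 0.120 (nkl.3), 0.104 (nkl.4) and 0.0950 (nitr2b). There they were 0.0976 (nkl.2) and 0.0924 (nitr2b) in double mutants against wild type, 0.0907, 0.111 and 0.219 (nkl.2, nkl.3, nkl.4) in double against prkdc mutants, and 0.0852, 0.0819 and 0.0852 in il2rga against prkdc mutants. That setting leaves 1 double and 1 il2rga mutant, assumed to vary like the other groups, and the double mutant still held 1491 CPM of liver transcripts. All these values stayed lower: the il2rga mutant left had 0, 3, 3 and 0 reads of nkl.2, nkl.3, nkl.4 and nitr2b, and the double mutant left 1, 17, 26 and 0. In it the log2 fold change against prkdc mutants was -2.59 for nkl.3 and -1.53 for nkl.4, beside -3.15 and -2.68 in all libraries. The DESeq2 Wald test called nkl.3 (0.0246) and nkl.4 (0.0185) in double mutants against wild type, and voom called nkl.4 there (0.0372) and nitr2b in prkdc mutants (0.0463). With only the groups compared, nkl.3 (0.0743) and nkl.4 (0.0926) were lost in double against prkdc mutants, and 6 values of low genes failed the filter. That nkl.4 call was also lost with DESeq2 size factors (0.0509), without a filter (0.0624) and with the replicate block (0.0523). The block changed no other call of the 4 genes. The causes were not tested.

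Leaving out each library in turn gave adjusted p of 0.0106 to 0.0898 for nkl.3, 0.00950 to 0.0724 for nkl.4 and 0.0116 to 0.0673 for nitr2b in il2rga mutants against wild type. It gave 0.0235 to 0.0588 for nkl.3 and 0.0163 to 0.161 for nkl.4 in double against prkdc mutants, 0.0210 to 0.235 for nkl.4 in double mutants against wild type, and 0.00803 to 0.0533 for nkl.4 in il2rga against prkdc mutants. CPM by raw totals moved no level by more than 1 SD.

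Calls over all genes varied with the setting. They numbered 1066 (22 to 2626) in il2rga mutants and 2628 (0 to 4078) in double mutants against wild type, 2717 (0 to 4176) in double and 1244 (16 to 3486) in il2rga against prkdc mutants, and 0 (up to 139) in prkdc mutants against wild type. They were 0 (up to 72) in double against il2rga mutants, 0 (up to 49) for the interaction, 5087 (1828 to 6398) for il2rga loss and 27 (0 to 116) for prkdc loss over both backgrounds. The lowest came without the liver-rich libraries in the pairs with calls. Depth limits levels near 1 read in a group.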
